A study of Mus musculus with 12 samples.

Results

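Livers of old male mice were assayed for 10 genes of the NRF2 and glutathione system: Nfe2l2, Keap1, Slc7a11, Gclc, Gclm, Gsr, Gpx2, Txnrd1, Srxn1 and Nqo1. They were chosen by name, as every probe outside the controls whose gene name on the array is one of these 10, among 34741 gene names in all. The 10 genes had 11 probes, 2 of them for Gsr, and 9 genes passed the filter on dim signals. Slc7a11 did not pass and was not tested.

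All mice were F2 males of the C3H/HeN strain, killed at about 74 weeks of age, and 4 groups of 3 one-colour arrays were made: arsenite-line tumours, arsenite-line non-tumour liver, arsenite-line normal liver and control-line non-tumour liver. In the arsenite line the pregnant F0 females were given sodium arsenite at 85 ppm in drinking water on gestation days 8 to 18. The F1 mice of that line were in the womb during this dosing. The F1 mice, mated at 10 weeks, and the F2 mice were given none themselves. No F2 animal was thus itself dosed, but those of the arsenite line descended from F1 mice exposed before birth. Samples carry a number within their group, but no label says whether each came from its own animal, so a p-value here reflects the spread between samples, part of which may be technical.

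NRF2, the protein of Nfe2l2, is a transcription factor that pairs with small MAF proteins on antioxidant response elements in the promoters and enhancers of detoxifying genes. KEAP1 holds it in the cytoplasm and presents it to a ubiquitin ligase, and electrophiles or oxidants that react with the cysteines of KEAP1 let NRF2 accumulate, so that its activity is set largely at the protein level. In liver its targets make and recycle glutathione, the main thiol of the hepatocyte, and supply thioredoxin and quinone reductases. Messenger RNA alone was measured here.

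The letters at the start of these genes are shown first, since several are held to be NRF2 targets through such elements. RefSeq windows on GRCm38.p6, from 250 bases before to 50 bases after the start, were found for 8 of the 10 genes, Txnrd1 having more than 1 window. Gclc and Gsr had none. The core of the antioxidant response element was searched as TGACNNNGC and the related AP-1 site as TGACTCA, on both strands, and no matches of the 2 motifs overlapped. TGACNNNGC occurred in 12.4% of all 32851 RefSeq promoter windows of this length and TGACTCA in 5.2%. Among the members, TGACNNNGC occurred in windows of 4 genes: Nfe2l2 as TGACTCCGC, Gclm as TGACGGTGC, Srxn1 as TGACCTAGC and 1 of the 3 windows of Txnrd1 as TGACAAAGC. TGACTCA occurred 2 times before Srxn1. A match is a description of these letters and not a site of binding, and a window with none says nothing of more distant elements. The windows of the 3 genes with a match that passed the test in both tumour comparisons follow, 5′ to 3′ on the gene's own strand, with the matched letters of either strand in capitals. Nfe2l2 (chr2:75704614-75704913, minus strand) has its match near the far end, at position -240 from the start. Gclm (chr3:122245307-122245606, plus strand) has it at -134 on the opposite strand. Srxn1 (chr2:152105274-152105573, plus strand) has both AP-1 matches, at -102 and -45, and the TGACNNNGC match at 29, past the start.

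Nfe2l2: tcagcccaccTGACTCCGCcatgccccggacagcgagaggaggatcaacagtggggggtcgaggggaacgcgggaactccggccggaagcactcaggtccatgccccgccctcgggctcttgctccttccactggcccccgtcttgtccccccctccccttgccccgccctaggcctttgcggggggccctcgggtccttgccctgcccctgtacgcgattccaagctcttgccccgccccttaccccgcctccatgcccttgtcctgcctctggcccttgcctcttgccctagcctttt
Gclm: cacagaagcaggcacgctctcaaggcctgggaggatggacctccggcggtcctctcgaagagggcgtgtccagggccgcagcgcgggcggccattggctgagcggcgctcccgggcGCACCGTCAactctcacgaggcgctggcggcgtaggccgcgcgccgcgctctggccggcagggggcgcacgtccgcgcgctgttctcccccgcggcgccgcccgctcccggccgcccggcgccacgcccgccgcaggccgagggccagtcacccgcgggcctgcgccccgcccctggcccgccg
Srxn1: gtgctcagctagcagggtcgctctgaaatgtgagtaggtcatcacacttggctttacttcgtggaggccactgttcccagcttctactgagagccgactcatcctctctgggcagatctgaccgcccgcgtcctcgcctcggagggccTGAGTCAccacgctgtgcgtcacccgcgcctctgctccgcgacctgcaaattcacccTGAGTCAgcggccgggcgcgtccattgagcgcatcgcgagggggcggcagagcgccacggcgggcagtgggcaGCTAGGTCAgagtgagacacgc

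In the tumours of the arsenite line, Nfe2l2 and Srxn1 were higher than in non-tumour liver of that line and Gclm, Gsr and Nqo1 were lower, so that the genes of this system did not move together. Nfe2l2 was 2.03-fold higher and Gclm 1.94-fold lower, Keap1, Gclc and Txnrd1 did not pass the test, and the dim gene Gpx2 was called higher at a signal near background. Nqo1 is less firm than Gclm and Gsr. It was well above background in 2 of 3 tumours and lost its call under 3 of 18 alternatives. Of the 9 members tested, 3 were called higher, where 17.1% of all 18104 genes were, and 3 lower, where 30.0% of all genes were. Gpx2 is 1 of the 3 called higher and entered the test only through the tumours, so it had to differ and lends no weight to these counts. In either direction 6 of 9 were called, beside 47.1% of all genes, and the median difference was -0.17 over the members and -0.13 over all genes tested. When tumours were set against normal liver, these 6 genes were called in the same directions and Txnrd1 was added among the lower, making 3 higher, beside 17.2% of all genes, and 4 lower, beside 31.0%, with 48.1% of all genes called either way. Both comparisons share the tumour arrays, so they are not separate evidence. Called means an adjusted p under 0.05 in limma, and differences are on the log2 scale of the signal relative to the array's 75th percentile.

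**Figure D1:**
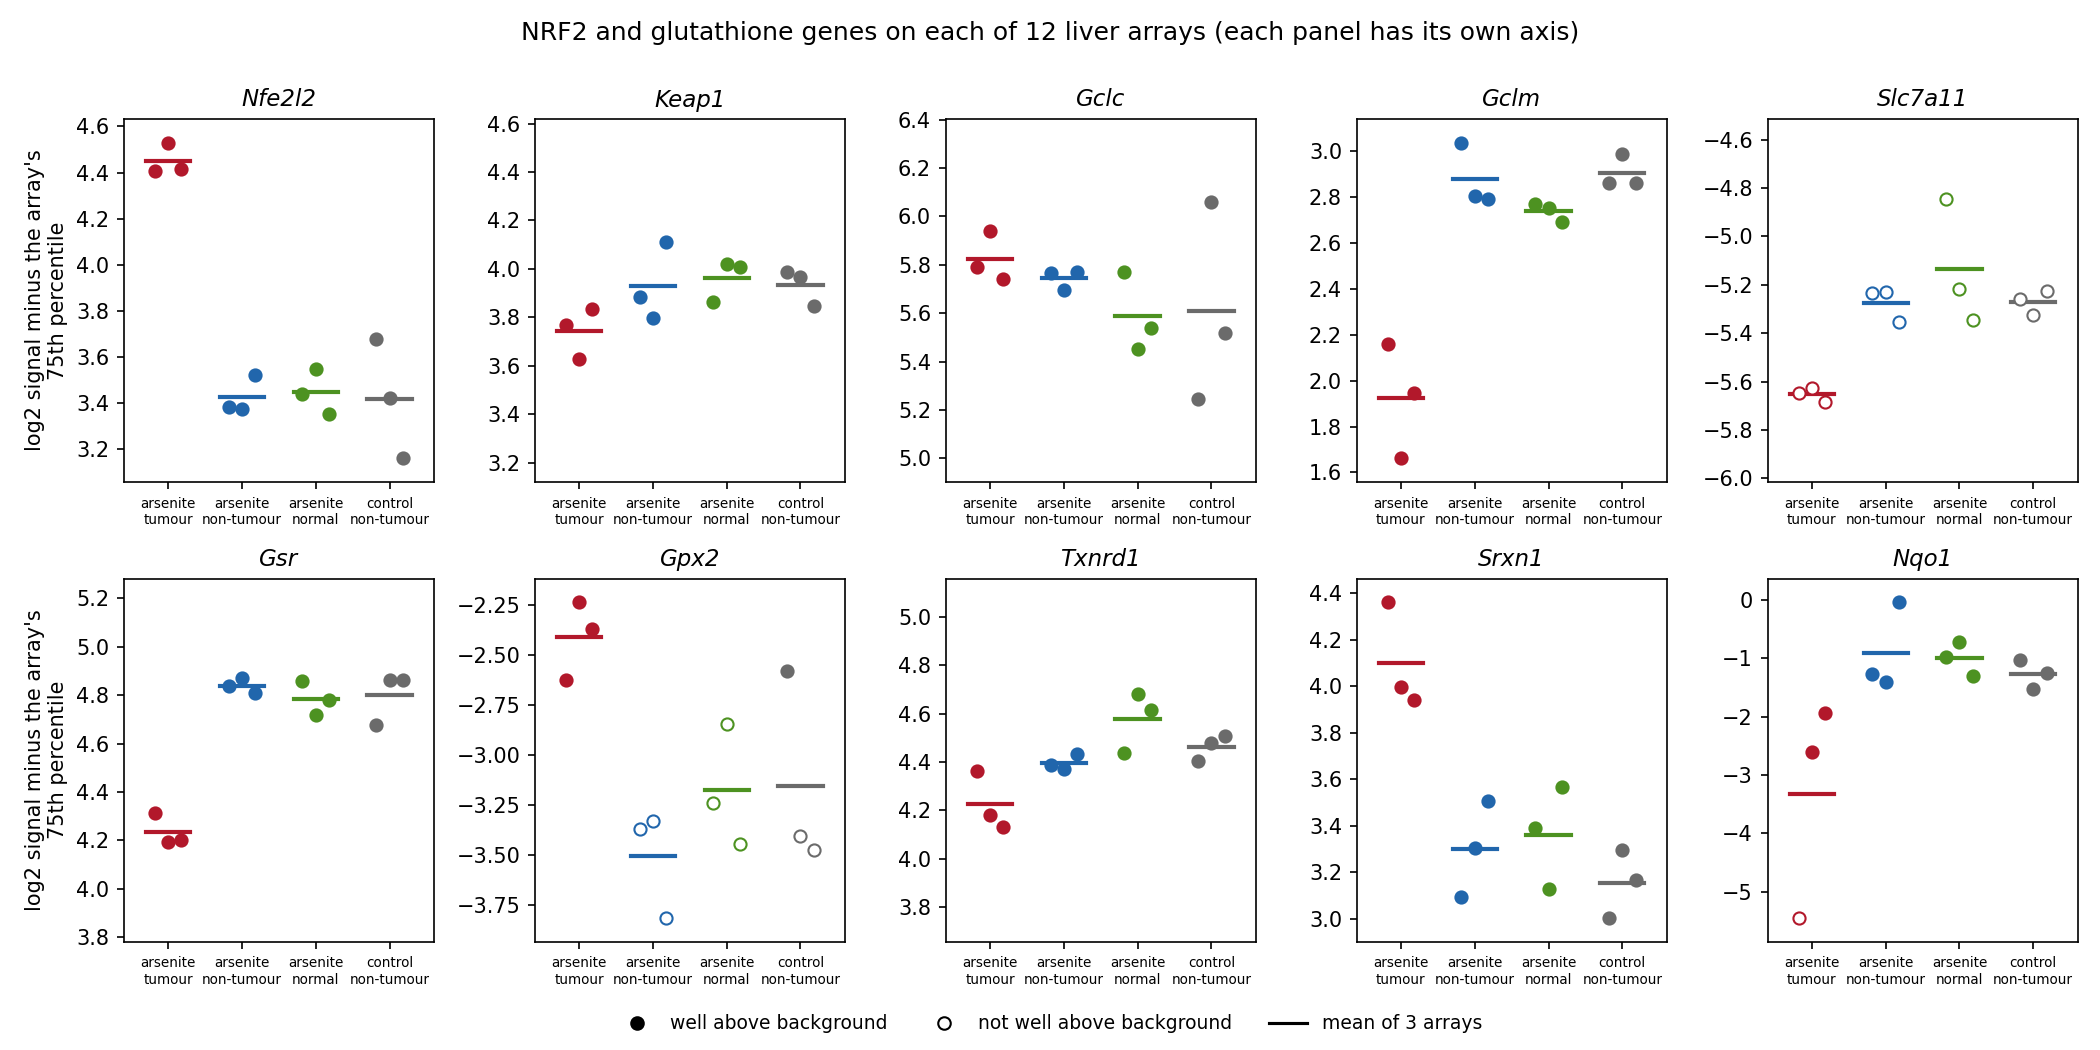
Signal of each of the 10 genes on each of the 12 arrays, as log2 relative to the array's 75th percentile, by group, with bars at the mean of 3 arrays and open points where the signal was not well above background. All 3 tumours lie above the 9 other arrays for Nfe2l2 and Srxn1 and below them for Gclm, Gsr and Nqo1, and every point of Slc7a11 is open.

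Tumours stood apart from all other arrays over the whole array. Across the genes tested, Pearson's r was 0.90 to 0.93 between a tumour and any array of the other groups, 0.99 among the 9 arrays of those groups and 0.98 to 0.99 among tumours, with genes as the points, which are no independent replicates. Between 39.3% and 45.7% of probes were well above background on an array. The 3 tumours lay on 1 slide, the 3 normal livers on another, and both non-tumour groups on the remaining slide, so slide and group cannot be told apart except between the non-tumour groups. Of the genes called in tumours against non-tumour liver 36.4% were higher, but 46.5% under quantile normalisation and 53.1% when arrays were scaled to the probes detected on all of them. Against normal liver the share was 35.7%, beside 46.0% and 50.1% under those scalings and 59.5% when arrays were scaled to the median.

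The samples carried liver markers. The albumin gene Alb averaged 10.74 in tumours and 10.79 in non-tumour liver (adjusted p = 0.72). Of 8 hepatocyte markers none was called higher and 3 lower in tumours, namely Tat, Cps1 and Apoa2, and their mean level per array was 7.92 to 8.45 in tumours against 8.87 to 9.01 in non-tumour liver. Of 8 macrophage and Kupffer cell markers none was called higher and 6 lower, Clec4f by -2.27 and Vsig4 by -1.68, with a mean level of 1.02 to 2.13 in tumours against 2.63 to 3.29 in non-tumour liver. Bile duct markers, 5 tested, gave no call either way, with a mean level of -1.67 to -1.15 in tumours against -1.43 to -1.23 in non-tumour liver, and Krt7 and Epcam were below the filter in every group. Of 3 B and plasma cell markers 2 were higher, with a mean level of -1.06 to -0.62 in tumours against -2.08 to -1.51 in non-tumour liver. Of 7 stellate cell and fibroblast markers 3 were higher and 3 lower, with a mean level of -0.74 to -0.08 in tumours against -0.73 to -0.58 in non-tumour liver. Of 6 endothelial markers 1 was higher and 2 lower, with a mean level of 2.03 to 2.33 in tumours against 2.04 to 2.22 in non-tumour liver. T and NK cell and neutrophil markers had 1 lower each of 3 tested and none higher. Their mean levels in tumours were 0.29 to 0.30 and 0.83 to 1.94, against 0.25 to 0.49 and 0.67 to 1.80 in non-tumour liver. The part of these marker levels in the results below was not tested. In such bulk samples fewer cells of a type and less RNA per cell cannot be told apart.

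Nfe2l2, the gene of NRF2 itself, had values of 4.40, 4.53 and 4.42 in tumours, against 3.38, 3.37 and 3.52 in non-tumour liver and 3.44, 3.55 and 3.35 in normal liver of the arsenite line and 3.68, 3.42 and 3.16 in control non-tumour liver. The tumours lay within 0.12 of each other and 0.73 above the highest of the other 9 arrays. The difference was 1.02 ± 0.13 against non-tumour liver (SE, n = 3 per group, adjusted p = 8.9e-05) and 1.0 ± 0.13 against normal liver, a 2.01-fold difference (adjusted p = 0.00011). Outside the tumours the 3 groups overlapped, and their means of 3.43, 3.45 and 3.42 in arsenite non-tumour, arsenite normal and control non-tumour liver did not differ beyond their spread. Its probe lies at chr2:75513771-75513830 on mm9, the build of the array's own annotation.

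Keap1, the inhibitor and sensor that targets NRF2 for degradation, had 3.77, 3.63 and 3.84 in tumours, against 3.88, 3.80 and 4.11 in non-tumour liver and 3.87, 4.02 and 4.01 in normal liver. Tumours overlapped non-tumour liver, and lay just under normal liver. The difference of -0.19 from non-tumour liver (95% interval -0.42 to 0.04, adjusted p = 0.16) and of -0.22 from normal liver (-0.45 to 0.01, adjusted p = 0.10) did not pass the test. Its probe, at chr9:21035292-21035732 on mm9, spans 441 bases of genome for a probe of 60, so it crosses exons, and so does that of Gclm at chr3:121962174-121964809, which spans 2636. Both are shown as the array carries them, since such a probe pairs with spliced RNA.

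Gclm probe: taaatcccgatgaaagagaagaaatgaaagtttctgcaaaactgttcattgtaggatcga
Keap1 probe: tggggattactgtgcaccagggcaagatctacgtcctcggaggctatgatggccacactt

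The 2 subunits of glutamate-cysteine ligase, the rate-limiting enzyme of glutathione synthesis, differed in the tumours. Gclm, the modifier subunit that raises the enzyme's affinity for glutamate and eases its inhibition by glutathione, had 2.16, 1.66 and 1.95 in tumours, against 3.04, 2.80 and 2.79 in non-tumour liver, 2.77, 2.76 and 2.69 in normal liver and 2.86, 2.99 and 2.86 in control non-tumour liver. Every tumour lay below all 9 other arrays, by at least 0.53. The difference was -0.96 ± 0.13 against non-tumour liver (SE, n = 3 per group, adjusted p = 0.00015) and -0.82 ± 0.13 against normal liver (adjusted p = 0.00042), 1.94-fold and 1.76-fold lower.

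Gclc, the catalytic subunit, had 5.79, 5.94 and 5.74 in tumours, against 5.77, 5.69 and 5.77 in non-tumour liver and 5.77, 5.45 and 5.54 in normal liver. The widest spread lay in control non-tumour liver, at 5.25, 6.06 and 5.52, and tumours overlapped every group. The difference was 0.08 from non-tumour liver (95% interval -0.31 to 0.47, adjusted p = 0.74) and 0.24 from normal liver (-0.16 to 0.63, adjusted p = 0.29). Changes of up to 0.47 in either comparison are within these intervals, so Gclc is not shown to be equal between groups. Its probe lies at chr9:77641296-77641355 on mm9.

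Slc7a11, the cystine carrier that brings in the cysteine of glutathione, was not well above background on any of the 12 arrays, and no fold is given. Its background-level signals were -5.68 to -5.63 in tumours, against -5.35 to -5.23 in non-tumour liver, -5.35 to -4.85 in normal liver and -5.33 to -5.22 in control non-tumour liver. Before scaling they were 4.35 to 4.88 in tumours, within the 4.28 to 5.41 of the other arrays. The 75th percentile of signal was 215 to 245 on tumour arrays and 153 to 204 on the others. No lower level in tumours is read from these values. The probe lies at chr3:50169700-50169759 on mm9, and 1 probe stands for the gene.

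Gsr, glutathione reductase, which regenerates reduced glutathione with NADPH, had 4.31, 4.19 and 4.20 in tumours, against 4.84, 4.87 and 4.81 in non-tumour liver, 4.86, 4.72 and 4.78 in normal liver and 4.67, 4.86 and 4.86 in control non-tumour liver. All tumours lay below the other 9 arrays, by at least 0.36. The difference was -0.60 ± 0.08 against non-tumour liver (SE, n = 3 per group, adjusted p = 0.00023) and -0.55 ± 0.08 against normal liver (adjusted p = 0.00042). The call against normal liver was lost when arrays were scaled to the median (-0.33, adjusted p = 0.16). A second probe of the gene, at chr8:34808413-34808472 beside the first at chr8:34808488-34808547 on mm9, shares no base with it. On it the tumours had 2.97, 2.92 and 3.09, against 3.61, 3.64 and 3.69 in non-tumour liver, again below all 9 other arrays. With each probe tested on its own that probe gave -0.65 against non-tumour liver (adjusted p = 0.00036) and -0.57 against normal liver (adjusted p = 0.00089).

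Gpx2, the glutathione peroxidase best known from the gut epithelium, was dim everywhere. It had -2.62, -2.24 and -2.37 in tumours, against -3.37, -3.33 and -3.82 in non-tumour liver and -3.24, -2.85 and -3.45 in normal liver. All 3 tumours were well above background and none of these 6 other arrays was, so the gene entered the test only through the tumours and had to differ. In control non-tumour liver it had -2.58, -3.41 and -3.47, and the first of these arrays, the only one of that group above background, lay within the range of the tumours. The fitted difference was 1.09 ± 0.25 against non-tumour liver (adjusted p = 0.0046) and 0.77 ± 0.25 against normal liver (adjusted p = 0.028). With dimmer signals raised to the dimmest signal well above background on their array, the folds were 1.69 and 1.5. These are not firm lower bounds. On normal array 2 the gene, at -2.85, was not well above background, though the dimmest such signal of any probe there was -3.37. With normexp background correction the differences were 0.053 (adjusted p = 0.71) and -0.060 (adjusted p = 0.66), so the call and, against normal liver, the direction depend on how background is removed.

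Txnrd1, the cytosolic thioredoxin reductase, had 4.36, 4.18 and 4.13 in tumours, against 4.39, 4.37 and 4.43 in non-tumour liver and 4.44, 4.68 and 4.62 in normal liver. The tumours lay below the 9 other arrays by 0.01 only. The difference from non-tumour liver, -0.17, did not pass the test (95% interval -0.38 to 0.04, adjusted p = 0.16), and its sign depends on the scaling, being 0.040 under quantile normalisation (adjusted p = 0.76). On the scale used here that from normal liver, -0.35 ± 0.09 (SE, n = 3 per group), passed (adjusted p = 0.010). That call was lost under quantile normalisation (adjusted p = 0.22), normexp correction (0.071) and both other scalings (0.089 and 0.51). It was also lost with the replicate number as a block (0.12), though no pairing by that number was seen with normal liver.

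Srxn1, sulfiredoxin, which restores over-oxidised peroxiredoxins, had 4.36, 4.0 and 3.94 in tumours, against 3.09, 3.30 and 3.51 in non-tumour liver, 3.39, 3.13 and 3.57 in normal liver and 3.00, 3.30 and 3.17 in control non-tumour liver. All tumours lay above the other 9 arrays, by at least 0.37. The difference was 0.80 ± 0.16 against non-tumour liver (SE, n = 3 per group, 1.74-fold, adjusted p = 0.0021) and 0.74 ± 0.16 against normal liver (1.66-fold, adjusted p = 0.0035). Its promoter window holds 3 matches of the motifs, and their part in this difference was not tested.

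Nqo1, the quinone reductase often read as a marker of NRF2 activity, had -5.46, -2.60 and -1.93 in tumours, against -1.27, -1.41 and -0.04 in non-tumour liver, -0.97, -0.73 and -1.31 in normal liver and -1.03, -1.53 and -1.24 in control non-tumour liver. All tumours lay below the other 9 arrays, and tumour 1 was not well above background, so 2 of 3 tumours measured it. The tumours spanned 3.52, whereas those of the other tested members spanned 0.50 or less. Tumours 2 and 3 were 3.23-fold and 2.04-fold below the mean of non-tumour liver. The fitted difference was -2.42 ± 0.74 against non-tumour liver (SE, n = 3 per group, adjusted p = 0.021) and -2.33 ± 0.74 against normal liver (adjusted p = 0.025), and without tumour 1 it was -1.36 (adjusted p = 0.020) and -1.27 (adjusted p = 0.027). With the replicate number as a block on the 6 arrays compared, neither call remained (adjusted p = 0.050 and 0.088). For normal liver, however, no pairing by that number was seen. Without non-tumour array 3, the brightest, the first call was lost too (-1.99, adjusted p = 0.076), and without normal array 1 or 2 the second (adjusted p = 0.059 and 0.069).

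**Figure D2:**
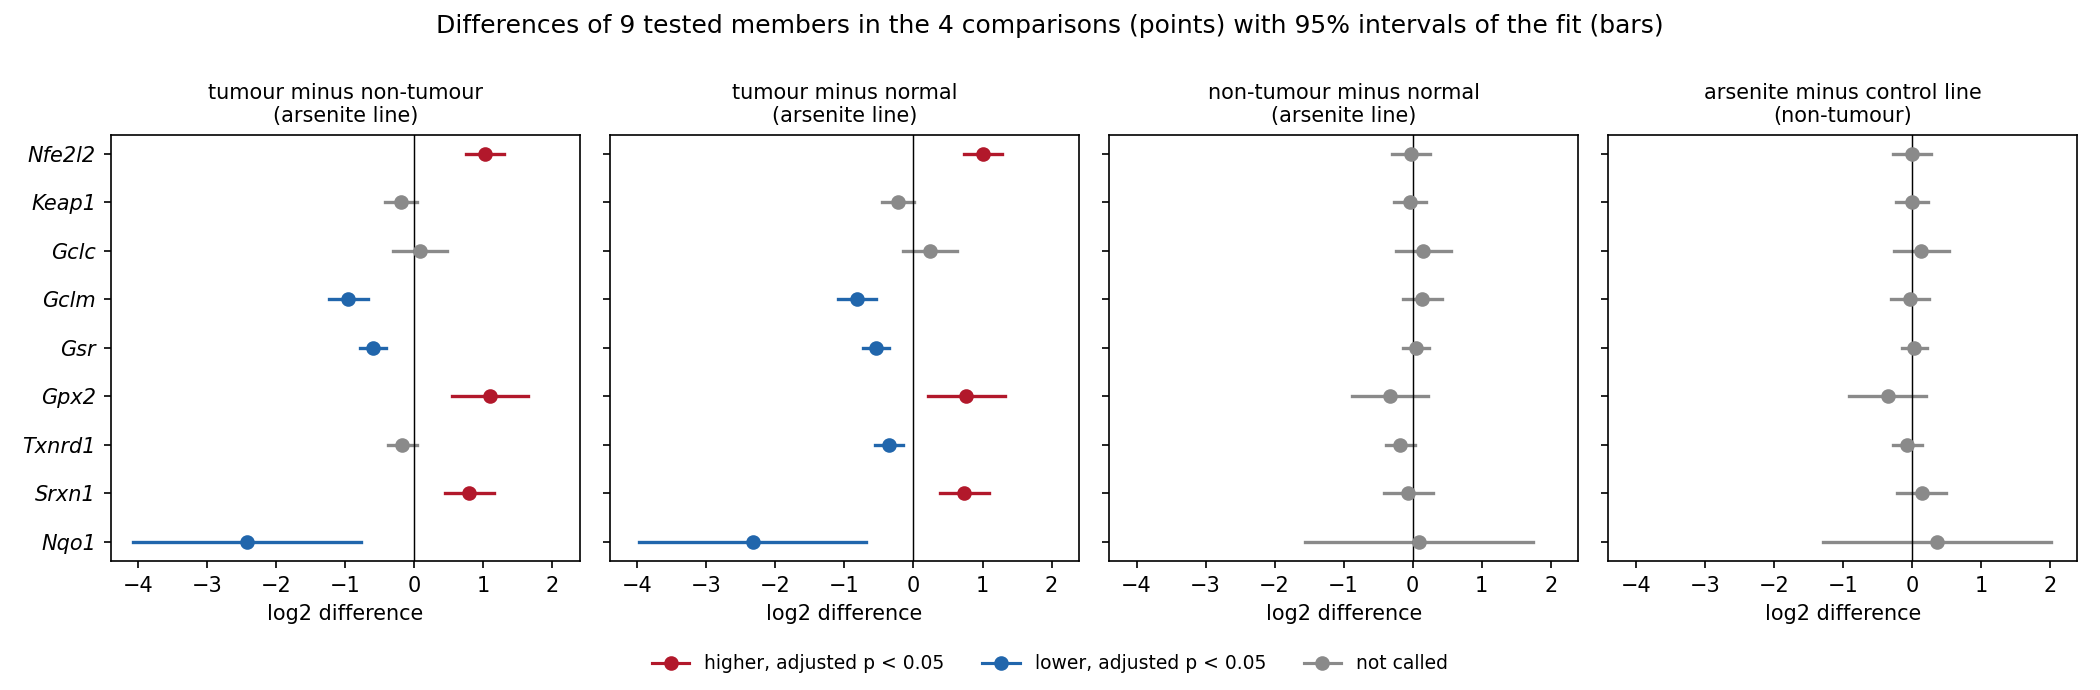
Log2 difference of the 9 tested genes in the 4 comparisons, as points with the 95% interval of the fit, coloured by call. Nfe2l2, Gpx2 and Srxn1 lie right of 0 and Gclm, Gsr and Nqo1 left of 0 in both tumour comparisons, Txnrd1 was called lower in 1 of them, and all intervals of the last 2 comparisons cross 0.

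Counted against all 9 other arrays at once, 2 members lay wholly above in tumours, Nfe2l2 and Srxn1, where 15.2% of all genes tested did. Below lay Gclm, Gsr, Nqo1 and, by its margin of 0.01, Txnrd1, where 28.0% of all genes did. Group against group, tumours did not overlap non-tumour liver in 7 of 9 members, beside 56.4% of all genes, nor normal liver in 8 of 9, beside 58.7%. Nothing particular to the members is read from these counts.

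Outside tumours no member was called. Non-tumour liver of the arsenite line was compared with normal liver of that line to ask whether the 2 kinds of liver differ, and 0 of 9 members and 0 of 18104 genes passed in limma, 0% of all genes. At an unadjusted p under 0.05 there were 0 members and 1238 genes. Txnrd1 had the smallest p among members, with -0.18 (95% interval -0.39 to 0.03, adjusted p = 0.78), and its groups did not overlap, nor did those of Gclm at 0.14 (-0.14 to 0.42, adjusted p = 0.90), where 15.2% of all genes did not. Nfe2l2 differed by -0.021 (-0.30 to 0.26).

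Non-tumour liver of the arsenite line was set against that of the control line, on 1 slide, to ask whether F2 livers differ by the exposure of their F0 grandmothers. None of the 9 members was called in limma, beside 0.00552% of all genes, which is 1 gene. At an unadjusted p under 0.05 there were 0 members and 1020 genes, and no member's groups were apart, where those of 10.5% of all genes were. Nfe2l2 differed by 0.0061 (95% interval -0.27 to 0.28), Keap1 by -0.0030 (-0.23 to 0.23), Gclm by -0.03 (-0.31 to 0.25) and Gsr by 0.04 (-0.15 to 0.23). Srxn1 differed by 0.15 (-0.21 to 0.50), Gclc by 0.14 (-0.26 to 0.53) and Txnrd1 by -0.07 (-0.27 to 0.14). Nqo1 differed by 0.36, with an interval of -1.28 to 2.01 that takes in the spread between tumours, since the fit pools all groups. Gpx2 was above background on 0 arsenite arrays and 1 control array and gets no fold. The medians were 0.0061 over members and -0.016 over all genes. Smaller changes than these intervals were not detectable with 3 arrays a group.

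The wider system was followed in 7 lists of genes other than the members, 115 of them tested. In tumours against non-tumour liver 22 were called higher and 63 lower, with a median of -0.54 beside -0.13 over all genes. Against normal liver 21 were higher and 60 lower, with a median of -0.51 beside -0.15. In the comparisons outside tumours 0 of 115 were called. The lists are described by counts and medians alone, beside the 17.1% of all genes that were higher and 30.0% lower.

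Among 14 partners and regulators of NRF2 tested, 5 were higher and 4 lower, with a median of -0.13, which turned to 0.03 when arrays were scaled to detected probes. Maff, a small MAF protein of the kind that pairs with NRF2, had 1.34, 0.65 and 0.44 in tumours, against -1.74, -2.01 and -1.90 in non-tumour liver. The groups lay far apart, 2.69 ± 0.25 from each other (SE over 3 arrays a group, adjusted p = 1.5e-05), and Mafk, another small MAF, differed by 0.91 and Mafg, the remaining one on the list, by -0.60. Bach1, a repressor that competes with NRF2 for the same elements, had 2.66, 2.93 and 2.60 in tumours, against 1.87, 1.90 and 1.85 in non-tumour liver (0.86 ± 0.11, adjusted p = 9.7e-05). Nfe2, a relative of NRF2 best known from blood cells, differed by 3.93 ± 0.72 (adjusted p = 0.0012), but it was above background on 1 of 3 non-tumour arrays only, so the size is not firm. Against normal liver Nfe2 differed by 1.91 (adjusted p = 0.048), and that call was lost under 6 alternatives (adjusted p of 0.059 to 0.17). Among those lower than in non-tumour liver were Park7 by -0.95, Sqstm1, whose protein p62 binds KEAP1, by -0.80, and Dpp3, another KEAP1 binder, by -0.54. Sqstm1 was not called against normal liver (-0.33, adjusted p = 0.16).

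Of 15 genes of glutathione synthesis and breakdown tested, 4 were higher and 9 lower, with a median of -0.64. Gss, glutathione synthetase, which adds glycine in the second step, had 3.87, 3.96 and 3.99 in tumours, against 3.06, 3.06 and 3.08 in non-tumour liver. The tumours lay above all other arrays, and the difference was 0.87 ± 0.09 (SE, n = 3 per group, 1.83-fold, adjusted p = 2.1e-05), opposite in sign to that of Gclm. Cth, cystathionine gamma-lyase, which makes cysteine from methionine's sulfur, had 3.44, 4.08 and 4.53 in tumours, against 6.74, 6.59 and 6.94 in non-tumour liver. It was 6.68-fold lower (-2.74 ± 0.24, adjusted p = 1.0e-05). Also higher were the amino acid carrier Slc1a4 by 1.77, Ggct, which breaks down gamma-glutamyl peptides, by 1.25, and the aminopeptidase Anpep by 0.99. Also lower were Oplah, the 5-oxoprolinase, by -1.64, Ggt6 by -2.45 and Slc3a2, the heavy chain that partners Slc7a11, by -0.64. Ggt1 was below the filter.

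**Figure D3:**
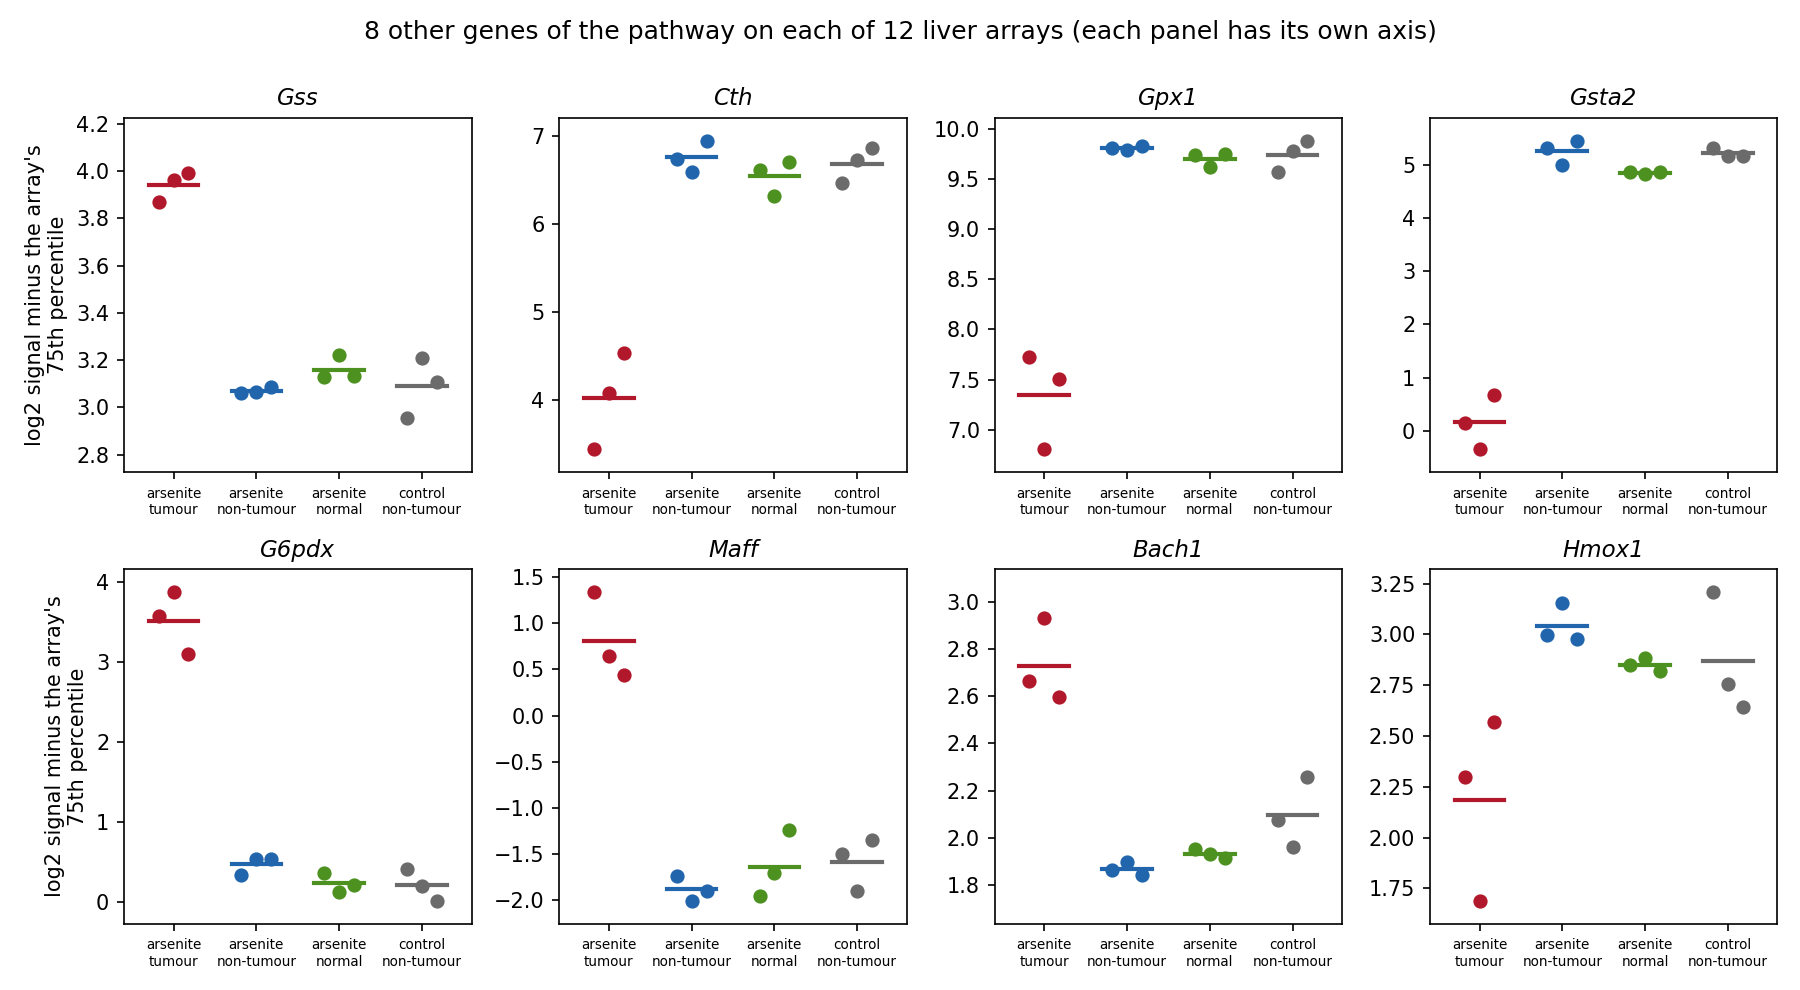
Signal of 8 further genes of the system on each of the 12 arrays, as log2 relative to the array's 75th percentile, with bars at the mean of 3 arrays. Gss, G6pdx, Maff and Bach1 lie higher in all 3 tumours than on every other array, and Cth, Gpx1, Gsta2 and Hmox1 lower.

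Enzymes that use glutathione were followed in 2 lists. Of 20 glutathione S-transferases tested 14 were lower and 1, Gstm5, higher, with a median of -0.89. Gsta2 had 0.16, -0.35 and 0.66 in tumours, against 5.31, 5.0 and 5.44 in non-tumour liver. It was 34.1-fold lower (-5.09 ± 0.21, SE, n = 3 per group, adjusted p = 8.3e-08), though a probe for 1 of such near-identical genes may also catch RNA of another, which was not tested. Gstk1 followed at -1.76, Gsto1 at -1.48 and Mgst1 at -1.89, while Gstm5 at 0.45 (adjusted p = 0.015) lost its call with the replicate block (adjusted p = 0.080), where 11 of the 20 were lower and 0 higher. The list named for peroxidases and glutaredoxins also held genes of neither kind, Hagh among them. Of its 11 genes, all outside the members, 5 were lower and 0 higher, with a median of -0.73. Under quantile normalisation 3 were higher. Gpx1, the main cytosolic glutathione peroxidase of liver, had 7.72, 6.80 and 7.51 in tumours, against 9.81, 9.79 and 9.83 in non-tumour liver. It was 5.52-fold lower (-2.46 ± 0.19, adjusted p = 5.3e-06), and Glrx, the cytosolic glutaredoxin, differed by -1.67, Hagh by -1.38 and Glrx5 by -0.90.

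The thioredoxin, peroxiredoxin, superoxide dismutase and catalase genes had 14 of 20 lower and 3 higher, with a median of -0.86. Prdx6, a peroxiredoxin that uses glutathione, had 6.94, 6.69 and 6.89 in tumours, against 8.60, 8.60 and 8.53 in non-tumour liver, with no overlap (-1.73 ± 0.10, SE, n = 3 per group, adjusted p = 7.4e-07). The superoxide dismutases Sod1, Sod2 and Sod3 differed by -1.16, -1.25 and -1.47. Sesn2 at 0.53 (adjusted p = 0.021), Prdx3 at 0.39 (0.025) and Prdx4 at 0.32 (0.030) were called higher. Of these Prdx3 (adjusted p = 0.14) and Prdx4 (0.13) lost their calls with the replicate block. None was called higher when arrays were scaled to the median or when only the 6 arrays compared were fitted (0.054 for Sesn2). Sesn2 also lost its call with array weights (0.064), and without non-tumour array 2 or 3 or tumour 1 or 2 (0.054 to 0.075). Txnip, an inhibitor of thioredoxin, differed by -0.21 (adjusted p = 0.40). Prdx4 was not called against normal liver (0.11, adjusted p = 0.40).

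Genes listed under the supply of NADPH, which Gsr and Txnrd1 consume, split. Of those named below, Taldo1 and Pgls belong to the pentose phosphate pathway but form no NADPH themselves. G6pdx, glucose-6-phosphate dehydrogenase, the entry to the pentose phosphate pathway, had 3.58, 3.88 and 3.11 in tumours, against 0.34, 0.54 and 0.54 in non-tumour liver, and was 8.27-fold higher (3.05 ± 0.18, SE, n = 3 per group, adjusted p = 8.6e-07). Pgd, the next NADPH-forming step, was higher by 0.98 ± 0.17 (adjusted p = 0.00085). The remaining 5 called of 8 tested were lower, among them malic enzyme Me1 by -1.66, isocitrate dehydrogenase Idh1 by -0.94, Taldo1 by -0.48 and Pgls by -0.48. The median of the 8 was -0.48. Under quantile normalisation it was -0.24 and 3 were called lower, Taldo1 no longer among them (-0.18, adjusted p = 0.084).

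Among 27 other reported NRF2 targets tested, 7 were higher and 12 lower, with a median of -0.25, which was -0.14 with normexp correction and -0.097 when arrays were scaled to detected probes. With the replicate block on the 6 arrays compared, 6 were higher and 9 lower. Higher were Ptgr1, a prostaglandin and alkenal reductase, by 2.34, the exporter Abcc5 by 2.98, the heme carrier Slc48a1 by 1.47 and the glycine carrier Slc6a9 by 1.38. Lower were Ces1g, a carboxylesterase, by -5.87, the ferritin chains Ftl1 by -1.23 and Fth1 by -0.86, and Abcb6 by -1.76. Hmox1, heme oxygenase, had 2.30, 1.69 and 2.57 in tumours, against 3.00, 3.15 and 2.97 in non-tumour liver, without overlap. It differed by -0.86 ± 0.21 (SE over 3 arrays a group, adjusted p = 0.0065), and lost its call with the replicate block (adjusted p = 0.056).

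**Figure D4:**
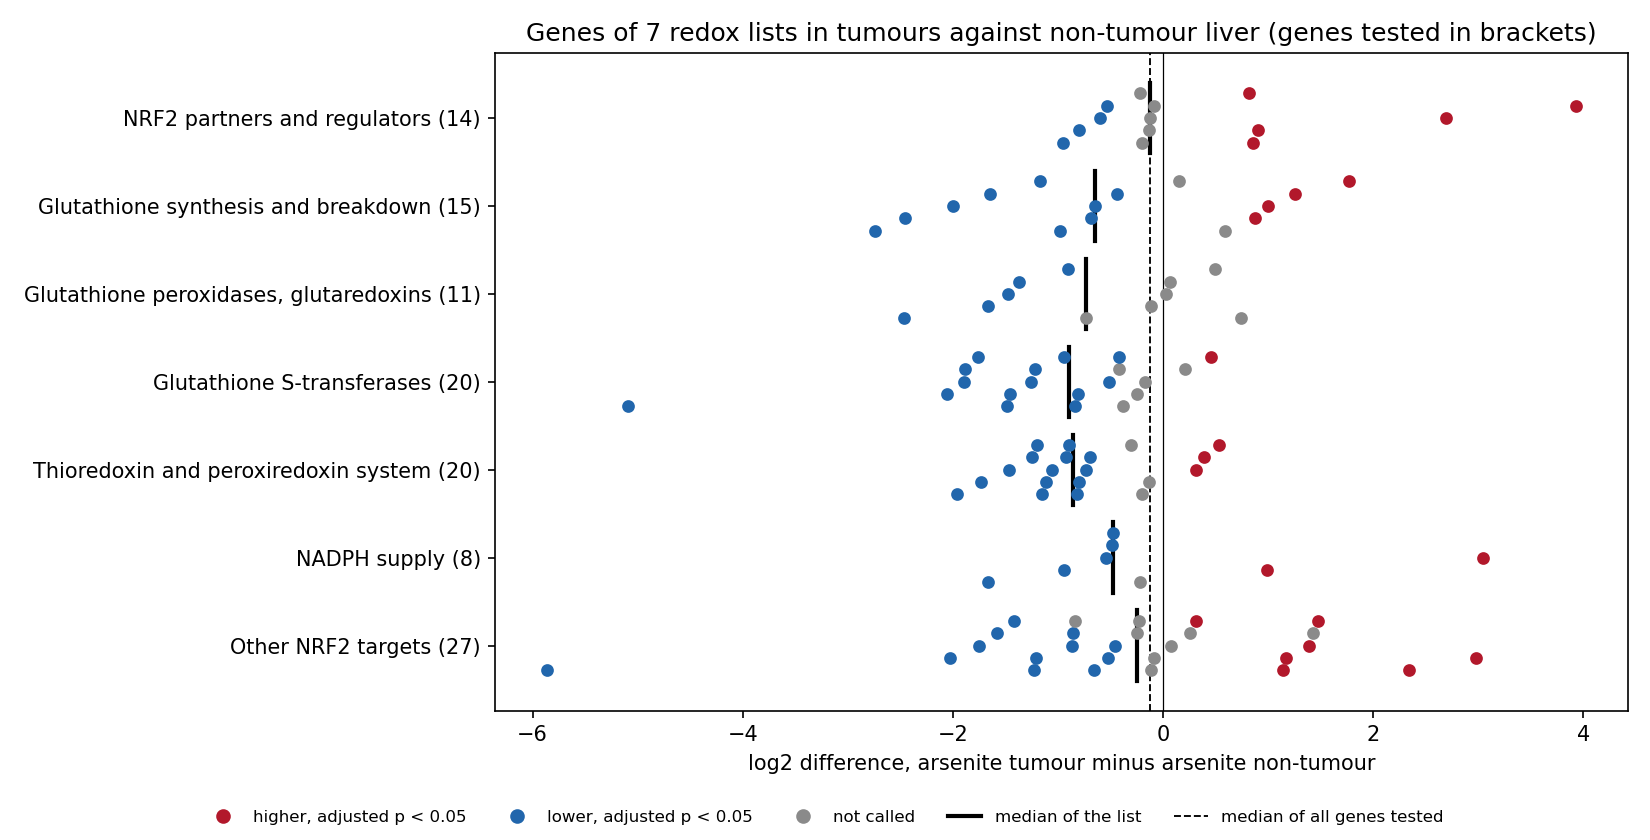
Log2 difference, tumour minus non-tumour liver of the arsenite line, for each gene of the 7 lists, coloured by call, with the list median as a thick bar and the median of all 18104 genes as a dashed line. Calls in either direction occur in 6 of the lists. The list named for peroxidases and glutaredoxins has lower calls only, but 3 higher calls under quantile normalisation.

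The genes whose values followed each member most closely over the 12 arrays were ranked by Pearson's r, which here rests mostly on the step between tumours and other arrays that these arrays share and is given as a description. For Nfe2l2 they were Igsf8 (0.990) and Pdlim7 (0.989), for Srxn1 Tnfrsf23 (0.970) and Arl5c (0.956), and for Gclm Dnase1 (0.987) and Serping1 (0.986). For Gsr they were Hsd3b7 (0.995) and Pafah2 (0.994), and for Nqo1 Ptprb (0.967) and Ccdc82 (0.960). Gclc, which did not follow that step, had its highest at Arntl (0.933) and Ppard (0.915). The highest named genes were Dnajc21 (0.931) for Txnrd1, Dusp7 (0.957) for Gpx2 and Rab10os (0.910) for Keap1.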

How the data were processed

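Liver RNA was hybridised to Agilent 1-colour arrays, 12 in all, after labelling of 100 ng per sample, per the labels' protocols. The deposited scanner output, per the file headers, lists for every spot a background-subtracted intensity (the processed signal, in arbitrary units) and other marks, such as a flag for signals well above background. The headers name Feature Extraction 10.7.3.1 and the submitters' processing notes 12.0.3.1. The authors also deposited a table of linear ratio values, which served as an alternative. They were found to be that signal over the 75th percentile of all spots on the array, controls included (largest departure 0.017%).

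Signals were taken to log2, the 75th percentile of the 59305 spots outside controls was subtracted on each array, and spots of a probe were averaged. Probes well above background on every array of 1 or more groups were kept (24148 probes), and the brightest probe stood for a gene (18104 genes). limma 3.58.1 in R 4.3.3 fitted 1 mean per group to the 12 arrays, with Benjamini-Hochberg adjustment over all genes, 2-sided, and a call at an adjusted p under 0.05. Where a group was nowhere above background, its signals under the dimmest signal well above background on their array were raised to it. Folds taken so are not firm lower bounds, since that dimmest signal is the lowest of any probe. The number of arrays limits the precision. The fit was tested on simulated data.

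Members and lists were chosen with earlier results of these data known. Named besides the 10 members were, per list and comparison, up to 4 called genes with the smallest p in each direction, the 2 most correlated genes of a member, and Hmox1, Gss, Bach1, Txnip and Ggt1. Markers of other cells were named after their values were seen. The labels do not say that equal replicate numbers mark 1 animal. Between tumours and non-tumour liver, deviations from the group means correlated at 0.15, 0.14 and 0.23 for like-numbered arrays and at -0.16 to -0.0045 for others. Such deviations cancel within a group, so higher values for like numbers force lower ones for the others. Pairing is thus a reading of the data and is not established. Between tumours and normal liver like numbers gave -0.02, 0.09 and 0.03 and others -0.08 to 0.05, so no pairing was seen there. A fit with the number as a block is given where it changes a call. Alternatives were quantile normalisation, normexp with an offset of 50, other scalings and filters, probe averaging, array weights and leaving out arrays. Python 3.11.15 and matplotlib 3.10.9 drew the figures.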

Additional observations from a re-analysis of the deposited data

How the results depend on the processing

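The counts of members called moved little over the alternatives run. In tumours against non-tumour liver 4 to 6 of the members were called, beside 6, and against normal liver 5 to 8, beside 7. The count of 4 came from keeping only probes well above background on every array. Gpx2 and Nqo1 had no value there, and no other called member lost its call. Outside tumours 0 were called under every alternative. Leaving out 1 array at a time gave 5 to 6 in tumours against non-tumour liver and 5 to 7 against normal liver. Of 169 values of members under alternatives in tumours against non-tumour liver, 164 kept direction and call, 4 lost the call and 1, never called, turned in sign, Txnrd1 under quantile normalisation (0.040, adjusted p = 0.76). Against normal liver 152 kept both, 14 lost the call and 2 gained one, Gclc under quantile normalisation (0.51, adjusted p = 0.034) and Keap1 with array weights (-0.26, adjusted p = 0.046). The 1 called value that turned was Gpx2 against normal liver, -0.060 with normexp. Fitting only the 6 arrays compared, replicate blocks, other filters and tests of each probe left a member's difference unchanged. They could move its call but not its sign. Outside tumours, where no value was called, 14 of 169 values turned in sign in non-tumour against normal liver and 19 of 169 between the lines. In non-tumour against normal liver, scaling to the median gave 0.27 for Nfe2l2, 0.25 for Keap1, 0.11 for Txnrd1 and 0.22 for Srxn1, and normexp gave 0.011 for Nfe2l2 and -0.025 for Nqo1. Leaving out 1 array at a time gave -0.069 to 0.029 for Nfe2l2, -0.12 to 0.034 for Keap1, -0.18 to 0.042 for Srxn1 and -0.34 to 0.35 for Nqo1. Between the lines, scaling to the median gave 0.24 for Keap1, 0.22 for Gclm and 0.18 for Txnrd1. Keap1 was 0.0049 with quantile normalisation, 0.019 with normexp and 0.0065 with detected probes, and Gclc was -0.10 with array weights. Leaving out 1 array at a time there gave -0.12 to 0.14 for Nfe2l2, -0.093 to 0.064 for Keap1, -0.043 to 0.36 for Gclc, -0.11 to 0.017 for Gclm, -0.024 to 0.07 for Gsr and -0.071 to 0.61 for Nqo1. The cause of these turns was not tested. Gpx2's call against normal liver also fell away without normal array 1 (adjusted p = 0.072) or 3 (0.097) or tumour 2 (0.084) or 3 (0.064), and Nqo1's calls when only the 6 arrays compared were fitted (0.085 and 0.079). The median difference of all genes shifted by 0.16 and 0.14 in the tumour comparisons when arrays were scaled to detected probes. It shifted by 0.22 in tumours against normal liver, 0.29 in non-tumour against normal liver and 0.25 between the lines when they were scaled to the median. With the replicate number as a block, Nqo1 was the only member in tumours against non-tumour liver to lose its call (adjusted p = 0.050), and no other call of a member there changed. Slide as a block was not run, since slide and group coincide except between the non-tumour groups, which share 1 slide. Signal over background limits Gpx2, Nqo1 and Slc7a11.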
